A study of Mus musculus with 2 samples.

Results

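The family of miR-15, miR-16, miR-103 and miR-107 was examined in serum exosomes, which are small vesicles released by cells, of tumour-bearing mice. The family comprised 8 mature mouse miRNAs, namely mmu-miR-15a-5p, mmu-miR-15b-5p, mmu-miR-16-5p, mmu-miR-195a-5p, mmu-miR-322-5p, mmu-miR-497a-5p, mmu-miR-103-3p and mmu-miR-107-3p (mmu for mouse, left out below). They were chosen by name for their related seeds out of the 1881 mouse miRNAs on an Agilent one-colour array. The rule used no measured value, but earlier results of these data were known when the choice was made. All 8 were represented on the array.

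In the LLC group, mice were injected under the skin with 1000000 luciferase-expressing LLC cells, a mouse Lewis lung carcinoma line, and received no other cells. In the co-injection group, labelled MSC+LLC, the same tumour cells were given with BMSCs, mesenchymal stem cells derived from mouse bone marrow. The study's text describes C57BL/6 mice, and its methods give female mice of 6 weeks for the tumour growth experiments. In both groups blood was taken when the tumours had reached a mean of 200 mm3, and 100 ng of exosomal RNA was labelled with Cy3. The titles of the samples say serum and the study's methods say plasma, and the titles are followed here. The labels also name LLC cells and lung, and for the co-injection group bone marrow, although the RNA came from blood exosomes. How many mice stood behind each array, and whether their blood was pooled, is not given in the sources used here. The study compared the groups to find exosomal miRNAs that differed when BMSCs accompanied the tumour.

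Each group had 1 array, so no test was possible, and each difference below is one between 2 hybridizations. Both arrays lay on 1 slide, so position on the slide and group cannot be told apart. Before scaling, the MSC+LLC array was much dimmer. Among probes detected in both groups, the 75th percentile of the signal stood at 2883 intensity units in the LLC group and at 250.3 in the co-injection group, 11.5-fold apart or 3.53 on the log2 scale. The hybridization spike-ins differed by 0.04 and the labelling spike-ins by -1.32 in log2 of MSC+LLC over LLC (4 probes each). Unless stated otherwise, a scaled log2 ratio is log2 of MSC+LLC over LLC after each array was divided by its percentile. It tells how a miRNA moved relative to the other detected miRNAs and not how much of it the serum held. Because 100 ng of exosomal RNA was labelled in both groups, neither scale reads how much exosomal RNA the serum held. The labelling spike-ins were lower on the MSC+LLC array, and the part of labelling in its dimmer signal was not tested. Whether each exosome held less of a miRNA cannot be told in either scale.

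A miRNA guides an Argonaute protein to messenger RNAs that pair with its seed, the stretch of bases near the 5′ end, and lowers their output. The miR-15/16 miRNAs are known for restraining cyclins and other cell cycle genes and for lowering BCL2, an inhibitor of cell death, and the locus of miR-15a and miR-16 is often lost in chronic lymphocytic leukaemia. miR-103 and miR-107 lie in introns of the pantothenate kinase genes, which make the enzymes of the first step of coenzyme A synthesis, and have been linked to insulin sensitivity and to repression of Dicer. miR-16 is abundant in red blood cells and plasma and has often served as a reference for circulating miRNAs.

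The mature sequences are shown because the seed defines the family and because some members are nearly identical. All were taken from RefSeq (GRCm38.p6), 5′ to 3′, and capitals mark bases 2 to 8, the seed.
miR-15a-5p: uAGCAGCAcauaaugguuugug
miR-15b-5p: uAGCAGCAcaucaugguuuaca
miR-16-5p: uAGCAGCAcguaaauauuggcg
miR-195a-5p: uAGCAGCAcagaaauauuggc
miR-322-5p: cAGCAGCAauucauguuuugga
miR-497a-5p: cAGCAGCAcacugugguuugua
miR-103-3p: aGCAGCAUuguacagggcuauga
miR-107-3p: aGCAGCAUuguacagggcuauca

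Of the 8 members, 6 carried the seed AGCAGCA and 2, miR-103 and miR-107, the seed GCAGCAU. The same 7 bases, AGCAGCA, occurred in all 8 sequences, but 1 base closer to the 5′ end in miR-103 and miR-107, which shifted their seed by that base. miR-103 and miR-107 were the closest pair. They differed at 1 of 23 positions, G22C, counted from 1 at the 5′ end with the base of miR-103 first. miR-16 and miR-195a differed at 2 of 21 aligned positions, G10A and U11G, with the base of miR-16 first. miR-15a and miR-15b differed at 4 of 22 positions.

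The members come from several chromosomes, and some of their genes lie close together. miR-15a (chr14:61632075-61632096, minus strand) lies 117 bases from one copy of miR-16 (chr14:61631936-61631957) inside the Dleu2 gene. miR-15b (chr3:69009775-69009796, plus strand) lies 121 bases from the second copy of miR-16 (chr3:69009918-69009939) inside Smc4, which encodes a condensin subunit. The array cannot separate the mature products of both miR-16 genes, because they are identical. miR-497a (chr11:70234730-70234751, plus strand) and miR-195a (chr11:70235062-70235082) are 310 bases apart, with no host gene in the table used. miR-322 (chrX:53054306-53054327, minus strand) lies within C430049B03Rik, 256 bases from miR-503. miR-107 (chr19:34820700-34820722, minus strand) lies in Pank1, and miR-103 has a gene in Pank2 (chr2:131288103-131288125, plus strand) and another in Pank3 (chr11:35782447-35782469, plus strand).

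All 8 members were detected on both arrays. A probe counted as detected when more than 50% of its spots stood well above background. Of all 1881 miRNAs, 26.7% were detected in the LLC group, 13.7% in the co-injection group and 12.8%, or 240 miRNAs, in both by the same probe. Each member had 2 probes of 15 spots. Of these 16 probes 12 were measured on both arrays, and for miR-195a, miR-322, miR-497a and miR-103 only the brighter probe was. Probes differ in how strongly they bind, so signals are compared between the arrays for 1 probe and never between miRNAs.

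Without scaling, all 8 members were dimmer in the co-injection group, by 11-fold for miR-497a to 32.6-fold for miR-103. For all 12 probes measured in both groups the spots of the arrays did not overlap. The array as a whole was dimmer too, and 217 of all 240 measured miRNAs were at least 2-fold lower without scaling. The median unscaled log2 ratio was -3.38 over the 240 and -4.08 over the members. After scaling, 3 members (miR-103, miR-15a and miR-15b) were at least 2-fold lower in the co-injection group, 5 were within 2-fold, and 0 were at least 2-fold higher. Among all 240 measured miRNAs, 11.2% were at least 2-fold lower and 27.1% at least 2-fold higher. The scaled ratio was below 0 in 7 of 8 members, against 42.9% of the 240. The members' median was -0.55 and that of all measured miRNAs 0.15, with quartiles of -0.45 and 1.18. These counts describe 2 arrays and carry no test.

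**Figure D1:**
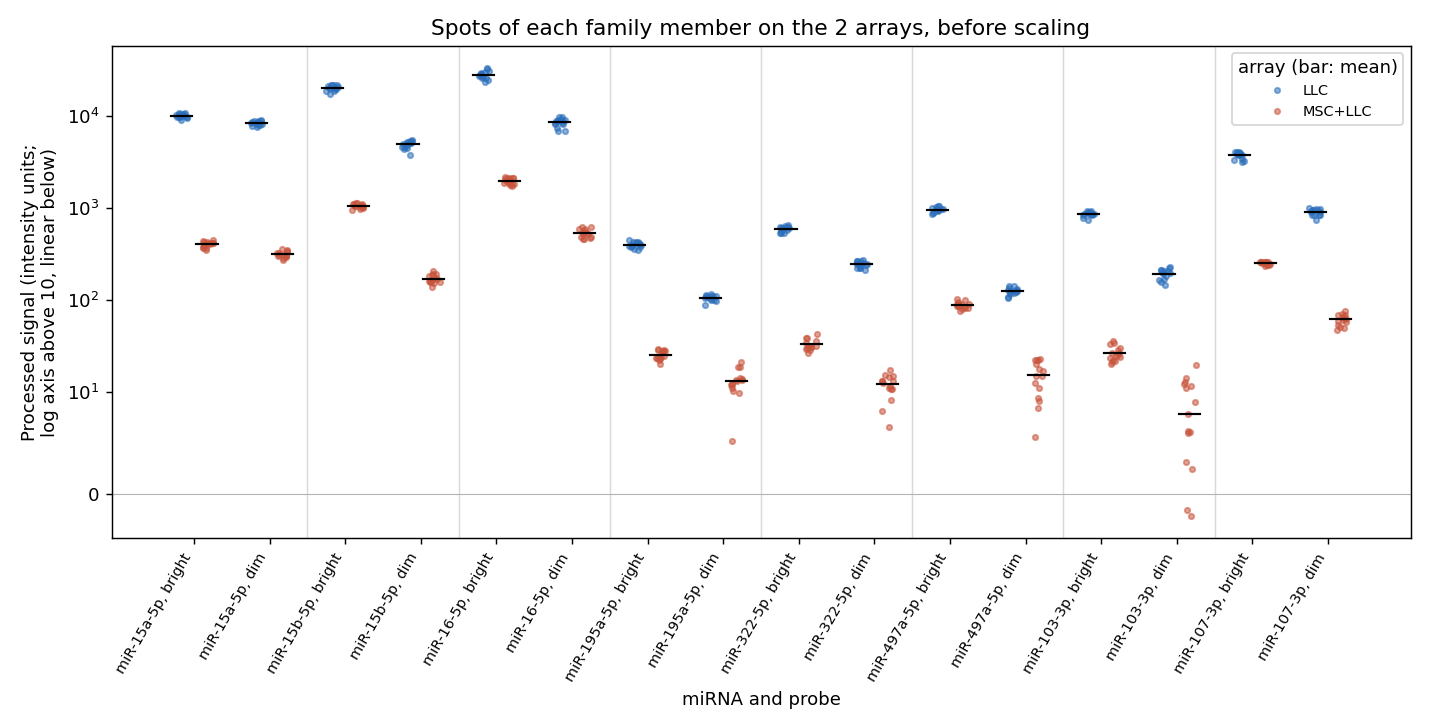
Processed signal of every kept spot (intensity units, vertical axis, logarithmic above 10 and linear below) for the 2 probes of each of the 8 members, with the LLC and the MSC+LLC array side by side, before scaling. For each of the 12 probes measured on both arrays, all spots of the MSC+LLC array lie below all spots of the LLC array.

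miR-15a-5p, which is known to target BCL2, was among the 3 members past 2-fold. The spots of its brighter probe had a lowest, median and highest signal of 8975, 9857 and 10848 on the LLC array and of 350.3, 408.5 and 449.5 on the MSC+LLC array. The means were 10040 ± 491.7 and 402.4 ± 28.1 (SD, 15 spots each). The scaled log2 ratio was -1.16 ± 0.13 (SD over spots), or 2.24-fold lower, and 25.8-fold dimmer without scaling. Its probes gave -1.11 and -1.21 and so differed by less than the spread of the spots. An SD over spots is technical and holds nothing of the variation between mice, and the number of arrays limits the precision of all these values.

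miR-15b-5p, its paralogue on chromosome 3, had a ratio near that of miR-15a. The brighter probe ranged from 17375 to 21926 (median 20255) on the LLC array and from 939.9 to 1133 (median 1046) on the MSC+LLC array. The mean signals were 20268 ± 1271 and 1049 ± 55.5. The scaled log2 ratio was -1.04 ± 0.17, or 2.05-fold lower. Here the probes disagreed beyond the spot-to-spot spread, with -0.75 for the brighter and -1.33 for the dimmer one. Whether miR-15b passed a 2-fold difference thus depended on the probe, and also on the processing.

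miR-16-5p, which is made from both of these loci, differed less between the groups than either neighbour. Its brighter probe ranged from 23399 to 32914 (median 27802) on the LLC array and from 1730 to 2182 (median 1958) on the MSC+LLC array. The means were 27965 ± 2736 and 1961 ± 149.1. The scaled log2 ratio was -0.39 ± 0.20, or 1.31-fold lower, and the probes gave -0.31 and -0.47. Relative to miR-16, the ratio of miR-15a was lower by -0.77 (combined SD over spots 0.24) and that of miR-15b by -0.65 (0.26). Relative to miR-16, miR-103 was lower still at -1.11 and miR-497a was higher at 0.46.

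miR-195a-5p and miR-497a-5p, which share a locus on chromosome 11, did not have the same ratio. The measured probe of miR-195a ranged from 347.5 to 443.5 (median 397.5) on the LLC array and from 20.3 to 29.4 (median 24.6) on the MSC+LLC array, with means of 398.4 ± 27.6 and 25.4 ± 2.78. Its scaled log2 ratio was -0.45 ± 0.19, or 1.36-fold lower. The measured probe of miR-497a ranged from 866.2 to 1055 (median 951.6) and from 75.8 to 100.8 (median 85), with means of 957.5 ± 55 and 87.2 ± 7.16. Its scaled log2 ratio of 0.07 ± 0.14 was the only one above 0, and it was within its spot-to-spot spread of no difference. miR-195a lay -0.52 below miR-497a (combined SD 0.24), although with normexp background correction miR-195a was the higher of the pair (0.85 against 0.48). The signal of miR-195a on the MSC+LLC array was close to the lowest of any detected probe there, 18.8 intensity units, and a scaled log2 ratio under -0.88 would have taken it below that signal. A 2-fold fall of miR-195a could therefore not have been measured.

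miR-322-5p, the mouse counterpart of human miR-424 and known from muscle differentiation, lay in the middle of the family. Its measured probe ranged from 529.9 to 654.2 (median 608.1) on the LLC array and from 26.5 to 42.6 (median 31.2) on the MSC+LLC array. The means were 593.1 ± 38.9 and 32.7 ± 4.48 (14 spots on the latter). The scaled log2 ratio was -0.65 ± 0.22, or 1.57-fold lower, and the lowest ratio that this probe could have shown was -1.45. The value depended on the processing. It was 0.47 with normexp, -1.09 with the signal summed over the probes and -1.46 in the deposited table. Its dimmer probe, at 242.4 ± 17.7 on the LLC array, was well above background in 0 of 15 spots on the MSC+LLC array, which made it at least 1.12-fold lower after scaling. No bound above 1-fold was available for the unmeasured probes of miR-195a, miR-497a and miR-103.

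miR-103-3p and miR-107-3p, identical but for 1 base near the 3′ end, stood further apart in the main setting than miR-15a and miR-15b or miR-16 and miR-195a. The measured probe of miR-103 ranged from 745.1 to 917.8 (median 859.5) on the LLC array and from 19.9 to 35.5 (median 25) on the MSC+LLC array, with means of 856 ± 50.7 (14 spots) and 26.2 ± 4.83 (15 spots). Its scaled log2 ratio of -1.50 ± 0.28, or 2.83-fold lower, was the lowest of the family, and a ratio under -1.98 could not have been measured. With normexp the ratio of miR-103 was -0.15, within 2-fold and no longer the lowest. The brighter probe of miR-107 ranged from 3116 to 4085 (median 3813) and from 233 to 260.5 (median 254.9), with means of 3729 ± 313.7 and 250.1 ± 9.13. Its scaled log2 ratio was -0.36 ± 0.19, or 1.29-fold lower, with -0.37 and -0.36 from its probes. miR-103 thus lay -1.14 below miR-107 (combined SD 0.34). Under the other settings this difference ran from -1.54 to -0.13. It was smallest with normexp, where miR-195a lay 1.41 above miR-16, so that this pair was then the further apart. Whether the probes of either miRNA also bound the other was not tested.

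From the lowest to the highest scaled ratio the members were ordered miR-103, miR-15a, miR-15b, miR-322, miR-195a, miR-16, miR-107 and miR-497a. The step from miR-103 to miR-15a was 0.34 (combined SD over spots 0.31), that from miR-15b to miR-322 0.39 (0.28) and that from miR-107 to miR-497a 0.43 (0.24). The other steps, 0.12 from miR-15a to miR-15b and 0.03 to 0.21 between miR-322, miR-195a, miR-16 and miR-107, were within the spread of the spots. Of the 28 pairs of members 22 differed by more than their combined SD. That SD leaves out differences between probes, which for miR-15b came to 0.59, more than any single step in the order. With the brightest probe alone miR-15b was at -0.75 and miR-322 at -0.65. The whole family spanned 1.57 on the log2 scale, or 2.97-fold. In the main setting the order did not follow the seed. The 2 members with GCAGCAU held the lowest and the second highest place, and the 6 with AGCAGCA had a median of -0.55. The lowest place rested on 1 probe of miR-103, at 26.2 on the MSC+LLC array, where the lowest detected signal was 18.8. With normexp miR-103 lay only -0.13 below miR-107.

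**Figure D2:**
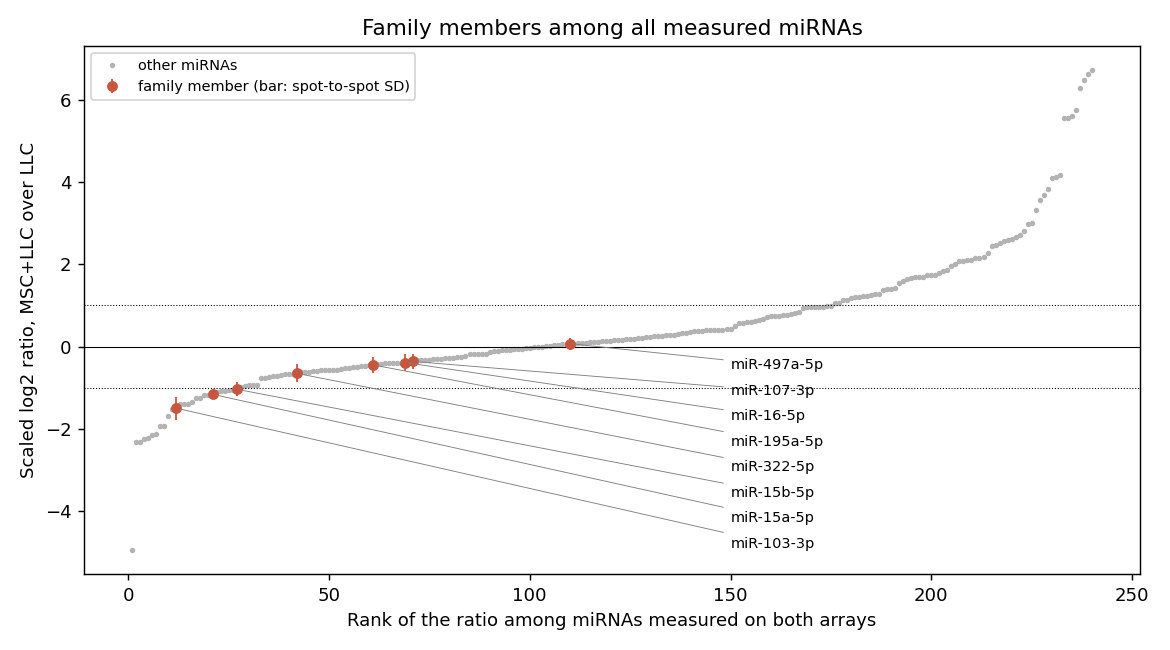
Scaled log2 ratio of MSC+LLC over LLC (vertical axis) of the 240 miRNAs measured on both arrays, ranked from lowest to highest (horizontal axis), with the 8 members marked and bars for the SD over spots. All members lie below the median of 0.15, from miR-103 at -1.50 to miR-497a at 0.07.

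Placed among the 240 measured miRNAs, all 8 members lay below the median ratio. miR-103 had 11 miRNAs below it (4.58%), miR-15a 20 (8.33%) and miR-15b 26 (10.8%). miR-322 had 41 (17.1%), miR-195a 60 (25%), miR-16 68 (28.3%) and miR-107 70 (29.2%). miR-497a had 109 (45.4%) and was nearest to the middle. The 5 miRNAs outside the family and its relatives whose ratios were closest to the members' median, out of 141 measured by at least 2 probes, were miR-714, miR-7033-5p, miR-1904, miR-3072-5p and miR-6995-5p, with scaled log2 ratios of -0.58 to -0.52.

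The choice of scale set the size of the family's shift. In 17 alternative settings the members' median stayed below 0 and below the median of all measured miRNAs, by -0.93 to -0.69, but it ran from -4.11 with the hybridization spike-ins to -0.09 with normexp. The 75th percentile of all probes, the median, the spike-in scalings and no scaling only multiply each array by a constant. They could not change the order of the members or their distance from that median. The summed signal and the deposited table gave the same ratios up to a constant. miR-103 had the lowest and miR-497a the highest ratio in 16 of the 17. The exception was normexp, in which 50 units were added to every signal. There miR-195a, miR-322 and miR-497a came out above 0 at 0.85, 0.47 and 0.48, miR-103 was at -0.15, and miR-15a was the lowest member at -1.21. With spike-ins or without scaling all 8 members were at least 2-fold lower, as were 180 to 217 of all 240 measured miRNAs. With the 75th percentile over all probes all 8 were as well, and 127 of the 240. In the authors' deposited log2 values, all 8 members were lower in the co-injection group, by -0.19 for miR-497a to -2.11 for miR-103, and 4 of them at least 2-fold. Detection was read from the flag of the scanner software, which all 8 members had on both arrays. Of the 295 miRNAs with that flag on both arrays, 58 were at least 2-fold lower and 70 at least 2-fold higher in the deposited values, with a median of -0.20. miR-16 had deposited log2 values of 6.23 and 5.57, and miR-103 of 1.11 and -1.0, in the LLC and MSC+LLC group.

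**Figure D3:**
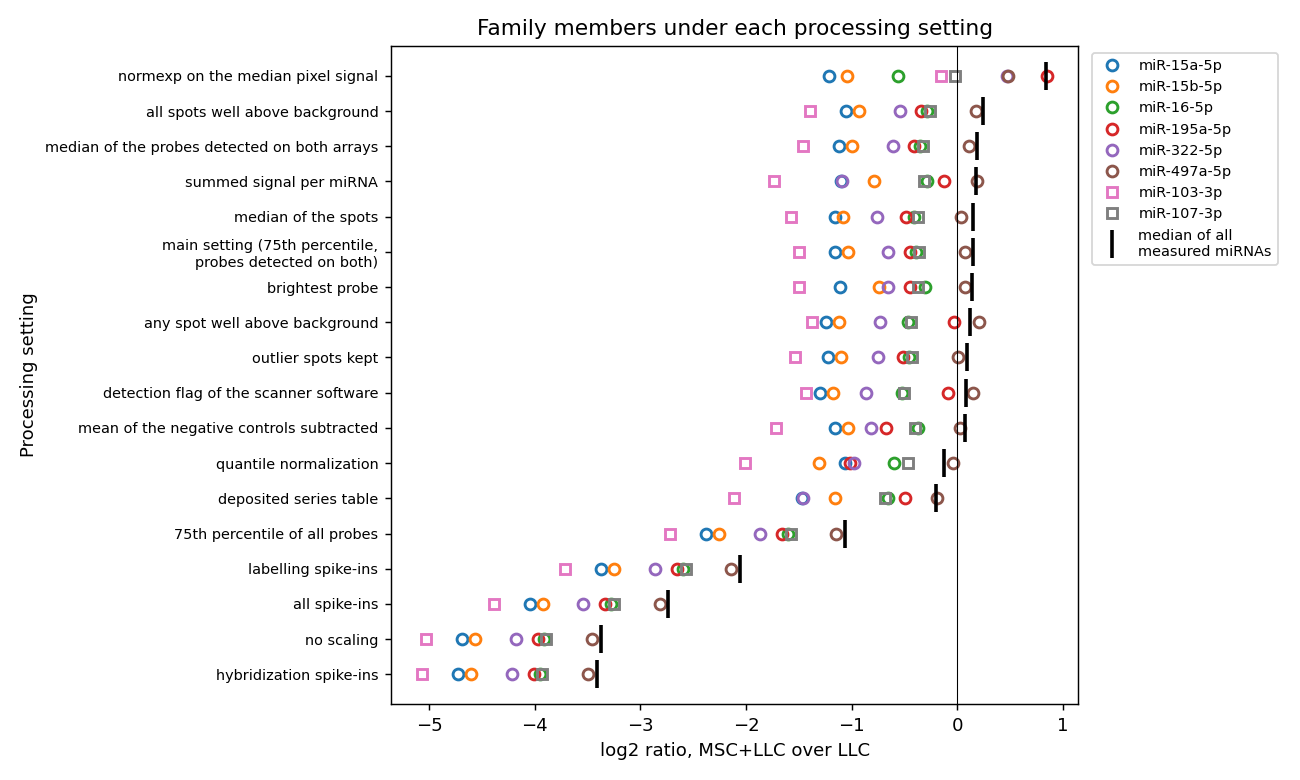
Log2 ratio of MSC+LLC over LLC (horizontal axis) of the 8 members under the main setting and 17 alternatives (vertical axis), with circles for the miR-15/16 seed group, squares for miR-103 and miR-107 and a black tick for the median of all measured miRNAs. The members' median lies left of that tick in every setting, between -4.11 with the hybridization spike-ins and -0.09 with normexp. Settings that multiply an array by a constant shift the members and the tick together. The order of the members differs from the main setting most visibly with normexp.

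The relatives of the family gave few further values, because most were below detection on the dimmer array. Of the 9 opposite arms on the array, that is the other strand of each hairpin and usually the one that is degraded, 4 were detected in the LLC group and 1 in the co-injection group. The latter was miR-195a-3p, with mean signals of 65.5 ± 7.28 and 23.9 ± 3.82 in these groups. Its scaled log2 ratio was 2.11 ± 0.28 (2 probes), whereas that of miR-195a-5p was -0.45, and without scaling it was dimmer by -1.42. At its LLC signal only a scaled log2 ratio above 1.72 could have been measured, so its detection and its high ratio go together. The 3 other opposite arms seen on the LLC array, those of miR-15a, miR-16-1 and miR-322, were at 35.6 to 46.7 intensity units there.

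Of 11 miRNAs from the neighbourhood of miR-322 on the X chromosome, 3 were detected on the LLC array and 1, miR-542-5p, on both. It had 328.8 ± 25.7 and 24.2 ± 3.85 intensity units and a scaled log2 ratio of -0.24 ± 0.26, against -0.65 for miR-322. miR-195b and miR-497b, named after members but encoded elsewhere or on the opposite strand, were detected on neither array. Beside the members, 6 miRNAs on the array share bases 2 to 7 with one of them. Of these, miR-1906 at 151.1 and miR-503-5p at 84.7 were detected in the LLC group, and 0 in the co-injection group. Neither miRNA had a bound above 1-fold. Their sequences are shown for the bases they share with the family, with bases 2 to 8 in capitals. miR-1906 (chr12:109544588-109544609, plus strand) has bases 2 to 7 of miR-103 and miR-107, and miR-503-5p (chrX:53054027-53054049, minus strand) has those of the miR-15 and miR-16 group.
miR-1906: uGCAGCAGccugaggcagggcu
miR-503-5p: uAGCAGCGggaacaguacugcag

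Because miR-16 is carried by red blood cells, the red cell miRNAs were set beside it. They did not move as a group. miR-451a had a scaled log2 ratio of 1.06 and miR-486a-5p of 1.66, while miR-144-3p and miR-144-5p both had -2.33. miR-16 at -0.39 lay between them, and so did the whole family. The lower quartile (-0.45) and the median (0.15) of all 240 measured miRNAs lay there too, so this place was not particular to the family. The part of red cell RNA in the members' values was not tested.

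The ratio also moved with the brightness and the composition of the miRNAs. Over the 240 measured miRNAs, Spearman's rho between the brightest probe's signal on the LLC array and the scaled log2 ratio was -0.49. That value describes miRNAs that share 2 arrays and a detection limit. The LLC signal is also the denominator of the ratio, which by itself favours a negative rho. Of the members, 6 were brighter than the median of 851.8 intensity units and had a median ratio of -0.71. The 114 other miRNAs on that side had a median of -0.17, and 16.7% of them were at least 2-fold lower. The 2 dimmer members, miR-195a and miR-322, had a median of -0.55, against 0.58 for the 118 other dim miRNAs. That side is not an even comparison, because its dimmest miRNAs were measurable only with a high ratio. At 65.5 units, the signal of miR-195a-3p, the lowest measurable scaled log2 ratio was 1.72. At the signals of miR-195a and miR-322 it was -0.88 and -1.45. Over the 197 measured miRNAs with a RefSeq sequence, rho between the share of G and C bases and the ratio was 0.31. The members held 40.9% to 50% G and C, at or below the median of 52.4%. The 57 other miRNAs within that range had a median ratio of 0.05. The members' medians thus lay below those of other miRNAs on the bright side or within the same range of composition. The part of brightness, composition or the detection limit in the family's ratios was not tested.

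**Figure D4:**
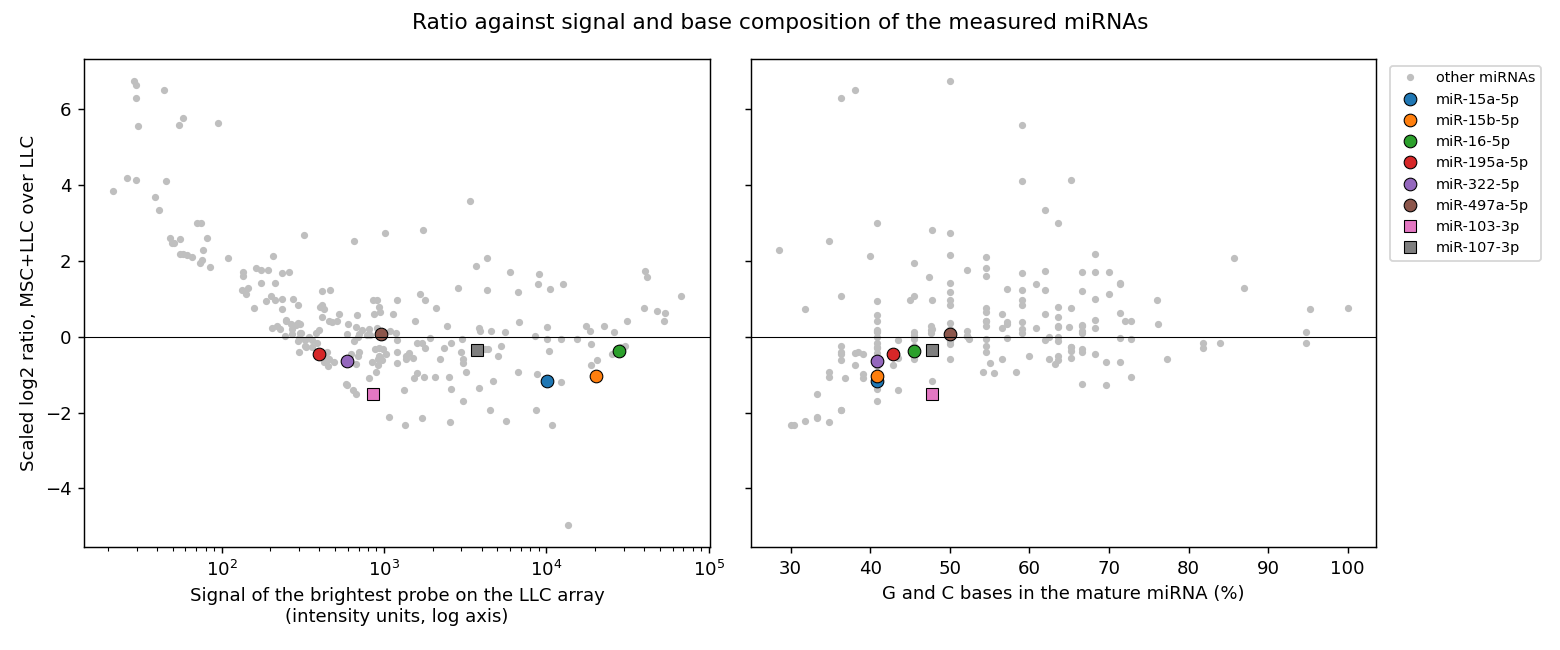
Scaled log2 ratio of MSC+LLC over LLC (vertical axes) against the signal of the brightest probe on the LLC array (left, intensity units, log axis, 240 miRNAs) and against the percentage of G and C bases (right, 197 miRNAs), with the 8 members marked. The ratios fall with signal (rho -0.49), which is also their denominator, and rise with G and C content (rho 0.31). On the left the lowest ratio that the MSC+LLC array could show rises toward the dim side, from -1.98 at the signal of miR-103 to -0.88 at that of miR-195a.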

How the data were processed

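Serum exosomal RNA of 1 LLC and 1 MSC+LLC sample was measured on one-colour Agilent mouse miRNA arrays. The authors read the scans with Feature Extraction, whose version is 11.5.1.1 in the headers and 10.7 in the submitters' processing notes. The deposited scanner files hold background-subtracted spot intensity on a linear scale, not scaled between arrays. The deposited series table holds log2 values that the authors made with GeneSpring. They equalled the log2 of each miRNA's total signal less 7.02 (LLC) or 3.48 (MSC+LLC), to within 1.53e-05. The floor of 0.1 for undetected miRNAs was on the total signal, before the log2 was taken.

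Outlier spots (3.04% and 2.95%) were left out, and 0 spots were saturated. The spots of a probe were averaged, and the 75th percentile over probes detected in both groups served as divisor for each array. The log2 ratios of the probes detected on both arrays were then averaged per miRNA. A probe detected on the LLC array only was given a bound against the higher of its own MSC+LLC signal and the lowest detected signal there. No test was possible with 1 array a group. The miRNAs named were all 8 members, lists of opposite arms, neighbours, miR-195b and miR-497b, miRNAs with shared bases 2 to 7 and red cell miRNAs, and the 5 nearest ratios. Members and lists were chosen with earlier results of these data known. RefSeq sequences and coordinates (GRCm38.p6) were matched by name for 8 of 8 members and 1608 of 1881 miRNAs. The file header names another build. Host genes were read from the mature sequences' positions in the same assembly. Alternatives changed the scaling, background, probe and spot summary, outliers, detection rule, source and fold threshold. The functions were tested on simulated data. Python 3.11.15, numpy 2.4.6, pandas 2.3.3, scipy 1.17.1, matplotlib 3.10.9, R 4.3.3 and limma 3.58.1 (normexp) were used.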

Additional observations from a re-analysis of the deposited data

How the results depend on the processing

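The members' median log2 ratio, -0.55 as reported, was -1.77 when the 75th percentile was taken over all probes, -1.0 with quantile normalization, -3.44 with all spike-ins, -2.76 with the labelling and -4.11 with the hybridization spike-ins, -4.08 without scaling, -0.090 with normexp, -0.92 in the deposited table and -0.74 with the mean of the negative controls subtracted, which was chosen after seeing the data. These scalings moved the median of all measured miRNAs as well, to between -3.42 (hybridization spike-ins) and 0.84 (normexp), and constant factors leave the differences between members unchanged by construction. The number of members at least 2-fold lower, 3 as reported, was 8 with the 75th percentile of all probes, with any of the spike-in scalings and without scaling, beside 127 to 217 of all 240 measured miRNAs, and 0 at a fold threshold of 4. It was 2 to 4 elsewhere. The members counted changed too. miR-15b left with the brightest probe (-0.75), the summed signal (-0.79), all spots required above background (-0.93) and the median scaling (-0.998). miR-103 left with normexp (-0.15). miR-322 entered with the summed signal (-1.09) and the deposited table (-1.46), and miR-195a with quantile normalization (-1.02). The number at least 2-fold higher was 0 in every setting, and 8 of 8 members were detected on both arrays under the 4 other detection and outlier rules. Of 136 values of single members recomputed, 72 moved by less than the SD over spots, 64 moved more, and 124 were below 0. The spike-in scalings, no scaling and the 75th percentile of all probes put all 8 members below 0 through their constants. The count of 124 is therefore no measure of how steady the sign was. The deposited table differed only by a constant from the summed signal, which gave a median of -0.55. With normexp the 50 units added exceeded the MSC+LLC signals of the measured probes of miR-195a (25.4), miR-322 (32.7) and miR-103 (26.2). The causes of the moves by quantile normalization and normexp were not tested. No paired analysis was possible because there was 1 array a group, which also means that no array could be left out. Depth limits the dim members most, since miR-195a, miR-322 and miR-103 had probes whose lowest measurable scaled log2 ratios were -0.88, -1.45 and -1.98.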
